A study of Mus musculus with 2 samples.

Results

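The Cyp4 fatty acid hydroxylases were compared between liver areas with and without globules of mutant alpha-1-antitrypsin. The genes were chosen by name, with earlier results of these data known. A probe set was counted where the platform annotation named no gene outside the list. Of 10 listed genes, 9 met this rule through 9 probe sets, and 8 of them were among the 30142 genes with a probe set of their own. Cyp4a12a, Cyp4a12b, Cyp4a14, Cyp4a31, Cyp4a32, Cyp4f13, Cyp4f14 and Cyp4f15 each had a probe set of their own, and Cyp4a10 was measured only by a probe set that it shared with Cyp4a31. Cyp4v3 was named only together with Klkb1, a plasma protease gene, so it was not counted. The mice were untreated PiZ mice of the C57BL/6 strain at 3 months of age and on standard chow, and all carried human ATZ, the gene of the mutant protein, under its human promoter. Cresyl Violet made the globules visible in sections, and areas were picked by morphology for laser capture. Each group was 1 array of RNA pooled from 2 mice, and the sources do not say whether both pools came from the same animals. No replicates existed, so no test was run, and every difference below is between 2 arrays with no measure of the spread between mice.

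Cytochrome P450 enzymes of family 4 add a hydroxyl group to the far end of fatty acids, the omega carbon. The products are oxidised to dicarboxylic acids and shortened in peroxisomes, or act as eicosanoid signals. In mouse liver the Cyp4a genes Cyp4a10 and Cyp4a14 are classical targets of PPARA, the nuclear receptor of fatty acid catabolism, whereas Cyp4a12a is known for its predominance in males. Cyp4f enzymes are known for the hydroxylation of leukotrienes and other long lipids.

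RefSeq promoter sequences (GRCm38.p6) were matched by symbol for Cyp4a32, Cyp4f13, Cyp4f14 and Cyp4f15, and promoters of Cyp4a10, Cyp4a14, Cyp4a31 and the Cyp4a12 genes were not analysed here. Within that limit, the stretches place the member with the largest difference, Cyp4a32, and the Cyp4f genes Cyp4f15, Cyp4f14 and Cyp4f13, with unequal differences, side by side. Each stretch ends at the edge of the annotated gene and is written 5′ to 3′ on the gene's strand. The capitals mark ATTGG, which is the CCAAT box read on the opposite strand. Cyp4a32 is on the plus strand at chr4:115600688-115600926, Cyp4f15 on the plus strand at chr17:32685409-32685630, Cyp4f14 on the minus strand at chr17:32917377-32917606 and Cyp4f13 on the minus strand at chr17:32947416-32947611.
Cyp4a32: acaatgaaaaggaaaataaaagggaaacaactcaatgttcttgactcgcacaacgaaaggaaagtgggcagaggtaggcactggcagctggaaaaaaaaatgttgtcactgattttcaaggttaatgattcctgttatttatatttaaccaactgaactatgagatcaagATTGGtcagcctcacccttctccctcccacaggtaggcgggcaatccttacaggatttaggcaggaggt
Cyp4f15: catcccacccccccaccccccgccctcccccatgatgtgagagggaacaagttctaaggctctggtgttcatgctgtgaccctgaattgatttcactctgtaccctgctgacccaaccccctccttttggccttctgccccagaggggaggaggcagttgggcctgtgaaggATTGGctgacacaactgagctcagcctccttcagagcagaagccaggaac
Cyp4f14: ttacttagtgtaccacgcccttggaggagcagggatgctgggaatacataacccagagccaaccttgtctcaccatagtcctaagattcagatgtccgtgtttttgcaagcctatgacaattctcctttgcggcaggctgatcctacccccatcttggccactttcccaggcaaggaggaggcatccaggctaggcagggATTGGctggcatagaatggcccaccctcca
Cyp4f13: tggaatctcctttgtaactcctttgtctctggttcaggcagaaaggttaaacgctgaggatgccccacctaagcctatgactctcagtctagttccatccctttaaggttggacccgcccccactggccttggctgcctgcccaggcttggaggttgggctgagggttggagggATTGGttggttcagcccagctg

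All 4 stretches held 1 CCAAT box, always as ATTGG, with 64 bases between it and the gene edge in Cyp4a32, 45 in Cyp4f15, 25 in Cyp4f14 and 17 in Cyp4f13. Of 32851 RefSeq windows of 250 bases, 33.8% held CCAAT on either strand. The box was in Cyp4a32 and Cyp4f15, which were at least 2-fold lower, and also in Cyp4f14 and Cyp4f13, which were not. The nuclear receptor half-site AGGTCA, searched on both strands, was in none of the 4 stretches and in 14% of all windows. A direct repeat of AGGNCA with 1 base between the copies, the form that PPARA binds, which overlaps the half-site motif, was in none of the 4 and in 0.338% of all windows. Other motifs were searched on both strands too. The STAT5 motif TTCNNNGAA and the antioxidant response motif TGACNNNGC were in none of the 4, and in 7.02% and 10.2% of all windows. The TATA box, TATAAA, was in Cyp4a32 only and in 12.4% of all windows. The printed stretches run from 196 to 239 bases and are shorter than these windows. A match is a run of letters and not a bound site. With the direct repeat in 0.338% of windows, its absence from 4 short stretches was near certain beforehand. No absence here tells whether a receptor binds these genes.

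Cyp4a32, Cyp4f15 and Cyp4a31 had lower signals in globule-containing areas, while Cyp4a12a, Cyp4a12b and Cyp4f13 differed by 0.20 or less on the log2 scale. Values are log2 signals as deposited, and a difference is globule-containing minus globule-free. Genes entered counts and medians where their mean signal reached a floor of 4.76, which is the median of all single-gene probe sets, and a gene was called lower or higher where the arrays were 2-fold or more apart. Of the 8 members with a probe set of their own, 7 passed the floor, and 3 of these were called lower and 0 higher. Of all 15023 genes above the floor, 5.26% were called lower and 6.47% higher. The floor lay below the background levels given below, 4.85 and 5.04, so some of these genes were too dim to measure. With a stricter floor of 6.70, the 75th percentile, the shares were 8.01% lower and 8.59% higher. All 7 members passed that floor too, with 3 called lower. The median difference was -0.91 over the 7 genes and -0.82 over all 8, against 0.05 over all genes above the floor. The value over all 8 takes in Cyp4a14, whose signals were too dim to measure the gene. With the shared probe set of Cyp4a10 and Cyp4a31 counted as well, 4 of 8 were called lower and the median was -1.23. In captured areas, fewer cells of a type and less RNA per cell cannot be told apart.

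Cyp4a32, a Cyp4a hydroxylase gene at the far end of the Cyp4a row, was the member with the largest difference. Its probe set (TC0400004188.mm.1) had 7.0 with globules and 10.33 without. The globule-containing signal was 10.05-fold lower, and both arrays lay above background. Background was taken as 4.85 on the globule-containing and 5.04 on the globule-free array, a level that 95% of the probe sets for receptors of smell and pheromones do not exceed. Only 0.30% of genes above the floor had a lower difference than Cyp4a32. Among 1331 genes with a mean signal from 8 to 9, as Cyp4a32 has, 8.04% were at least 2-fold lower, and the 5th percentile of their differences was -1.29.

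Cyp4a10, a gene commonly used as a readout of PPARA activity, was measured only together with Cyp4a31. The probe set annotated to both (TC0400004187.mm.1) had 7.47 with globules and 9.40 without, 3.81-fold lower. This value cannot be divided between Cyp4a10 and Cyp4a31. Cyp4a31 also had a probe set of its own (TC0400001229.mm.1), with 6.32 against 7.87, 2.93-fold lower. Both probe sets were thus lower by similar amounts, with differences of -1.93 and -1.55. The gap of 0.38 between them compares with a median gap of 0.17, and a 95th percentile of 1.32, over 177 genes with 2 probe sets above the floor. Cyp4a genes are close relatives whose transcripts can share hybridisation. The values of all Cyp4a probe sets, those of Cyp4a12a and Cyp4a12b included, are uncertain to that extent.

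Cyp4a14, the other classical PPARA target of this family, could not be measured. Its probe set (TC0400003318.mm.1) had 4.10 with globules and 4.83 without. Both values lay at or below background, so no fold is given, and Cyp4a14 is the only member of the 8 below the floor. The deposited difference was -0.73, which says nothing of the gene with both values at background.

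Cyp4a12a and Cyp4a12b, neighbouring and closely related genes for arachidonic acid omega-hydroxylases of male liver, had nearly equal signals in both areas. Cyp4a12a (TC0400001221.mm.1) had 16.69 with globules and 16.62 without. Cyp4a12b (TC0400001223.mm.1) had 16.47 against 16.28. The differences of 0.07 and 0.20 turned negative after quantile normalization, to -0.24 and -0.10, and after loess correction, to -0.22 and -0.08, so they have no settled direction. Under every treatment of the values tried, both stayed within 0.24 of 0. The signals lay below the highest values of the arrays, 19.93 and 19.80. Of 125 genes with a mean from 16 to 17, 11.2% were called lower and 4.80% higher. Whether these 2 probe sets could register a difference at so high a signal was not tested. The measured differences of the Cyp4a probe sets were unequal. The gap was 3.40 between those of Cyp4a12a and Cyp4a32 and 1.62 between those of Cyp4a12a and Cyp4a31.

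**Figure D1:**
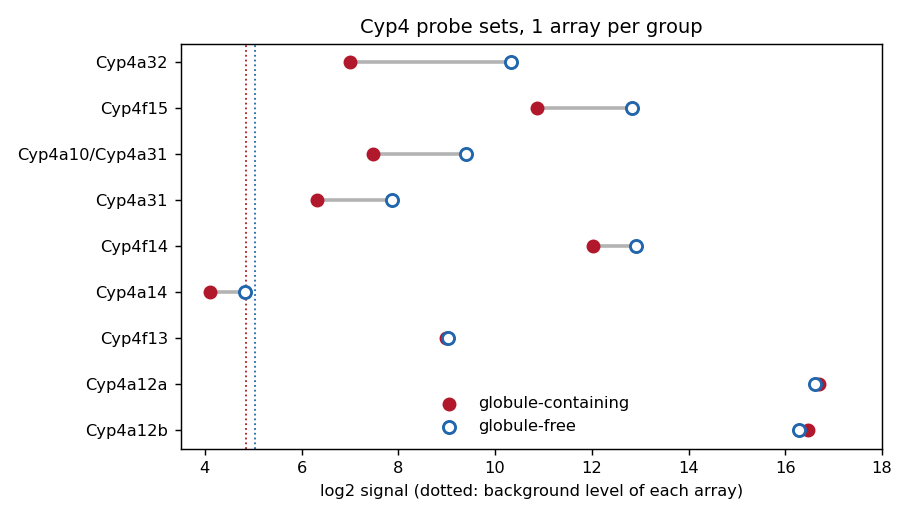
Log2 signal of each Cyp4 probe set on the globule-containing array (filled red) and the globule-free array (open blue), 1 array per group, with the background level of each array as a dotted line. Cyp4a32 runs from 10.33 down to 7.0, while the points of Cyp4a12a, Cyp4a12b and Cyp4f13 nearly coincide and both points of Cyp4a14 lie at background, and levels of different probe sets are not comparable with each other.

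The 3 Cyp4f members differed by unequal amounts too. Cyp4f15 (TC1700000567.mm.1) had 10.86 with globules and 12.82 without, 3.90-fold lower, and 1.36% of genes above the floor had a lower difference. Among 464 genes with a mean signal from 11 to 12, as Cyp4f15 has, 11.6% were at least 2-fold lower. The 5th percentile of their differences was -1.81, close to the -1.96 of Cyp4f15. Cyp4f14, a leukotriene hydroxylase of mouse liver (TC1700001856.mm.1), had 12.01 against 12.92, 1.87-fold lower. Its difference of -0.91 lay just short of the 2-fold line as deposited and past it, at -1.01 to -1.10, with the arrays centred, after quantile normalization and after loess correction. Among 339 genes with a mean signal from 12 to 13, as Cyp4f14 has, 12.1% were at least 2-fold lower, with a 5th percentile of -1.91. Cyp4f13 (TC1700001857.mm.1) had 8.98 against 9.03, a difference of -0.04. The gap in difference was 1.92 between Cyp4f13 and Cyp4f15 and 0.86 between Cyp4f13 and Cyp4f14. All 3 probe sets lay well above background on both arrays.

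The probe set that names both Cyp4v3 and Klkb1 (TC0800002144.mm.1) had 13.99 with globules and 15.68 without. Cyp4v3 encodes a fatty acid hydroxylase whose human counterpart is linked to a crystalline retinal dystrophy. Since the value belongs to neither gene alone, it entered no count.

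**Figure D2:**
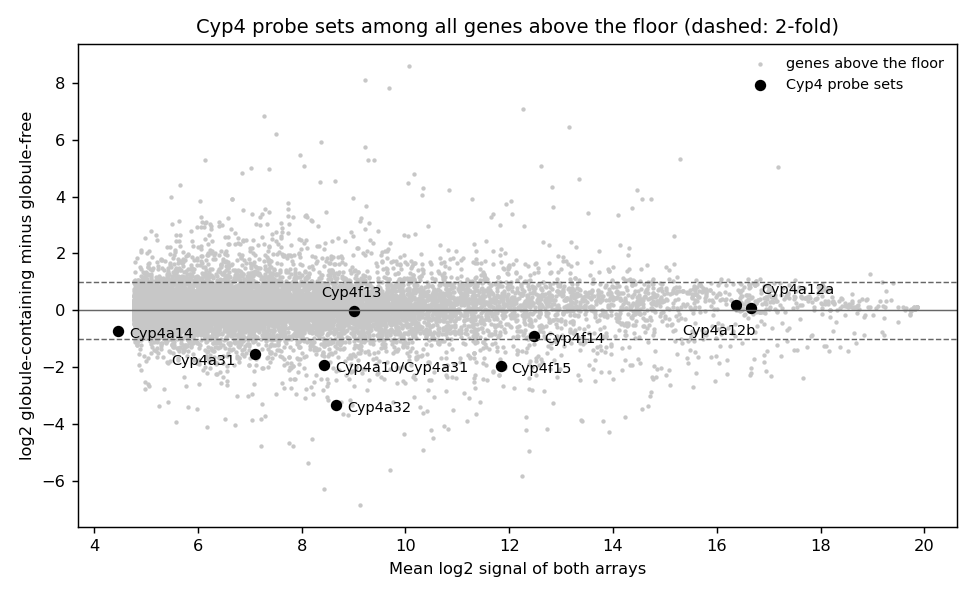
Difference (log2 globule-containing minus globule-free) against the mean log2 signal of both arrays for 15023 genes above the floor (grey) and the 9 Cyp4 probe sets (black), with dashed lines at 2-fold. Cyp4a32, at -3.33, lies lowest of the members, and Cyp4a12a and Cyp4a12b lie near 0 at the bright end.

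Members with lower signals lay at one end of the Cyp4a row. In the RefSeq gene order of chromosome 4, Cyp4a12a and Cyp4a12b come first among the members, followed by Cyp4a14, Cyp4a10, Cyp4a31 and Cyp4a32. The differences near 0 thus belonged to the Cyp4a12 genes at the start of the row, and the lower signals to Cyp4a31, Cyp4a32 and the probe set shared by Cyp4a10 and Cyp4a31 at its end, with Cyp4a14, at background, between the groups. Cyp4b1-ps2, a pseudogene between Cyp4a31 and Cyp4a32, interrupted that stretch with a difference of 0.45, from 6.39 with globules and 5.94 without. Cyp4b1, the next Cyp4 gene after Cyp4a32 and an enzyme of lung and kidney, had 5.53 against 5.60. On chromosome 17, Cyp4f15, Cyp4f14 and Cyp4f13 follow each other in that order among the Cyp4 genes, with differences of -1.96, -0.91 and -0.04. Related genes that lie close together are also the ones most likely to share hybridisation, and the part of this in the pattern was not tested.

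**Figure D3:**
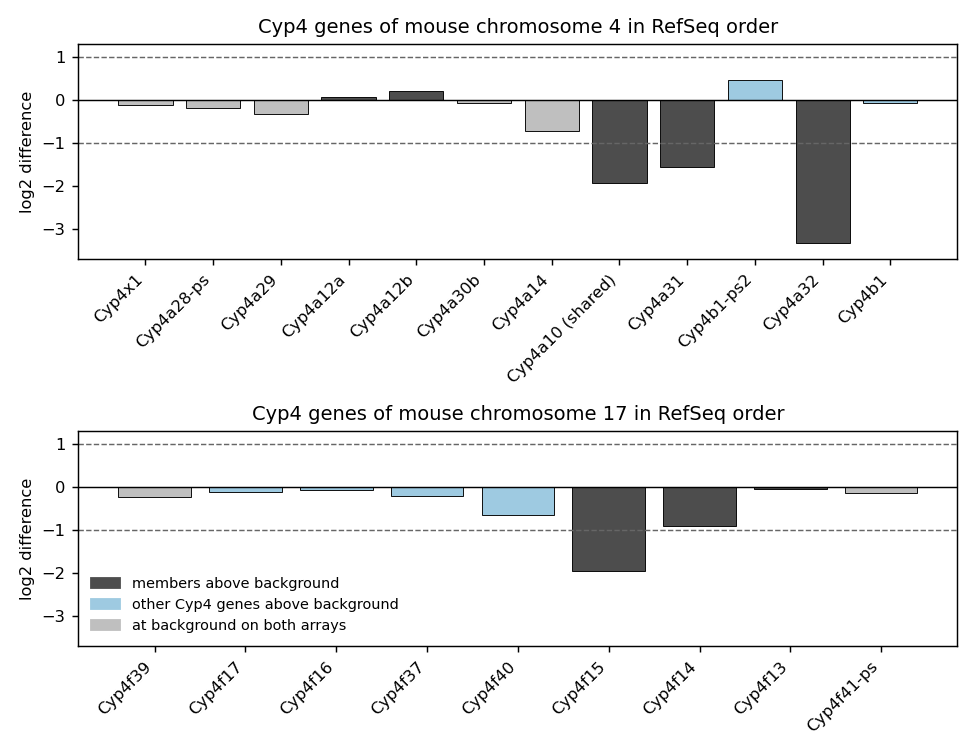
Difference (log2 globule-containing minus globule-free) of each measured Cyp4 gene of chromosomes 4 and 17 in RefSeq order, with members above background in dark grey, other Cyp4 genes above background in light blue and genes at background on both arrays in light grey. The largest negative bars are Cyp4a10 (its shared probe set, -1.93), Cyp4a31 (-1.55) and Cyp4a32 (-3.33) on chromosome 4 and Cyp4f15 (-1.96) on chromosome 17.

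The remaining Cyp4 genes were dim and differed little. Of 14 listed, 10 had a probe set of their own, 5 of these passed the floor, and 0 of the 5 were called, with a median of -0.13. Cyp4f17 had 6.17 against 6.29, Cyp4f16 had 6.24 against 6.31 and Cyp4f37 had 5.32 against 5.53. Cyp4f40 had the largest difference, with 4.71 against 5.35, and its globule-containing signal lay at background, which makes it at least 1.42-fold lower. Cyp4f18, a leukotriene hydroxylase of neutrophils and other myeloid cells, lay at background on both arrays, with 4.58 and 4.68. Cyp4x1, Cyp4f39, Cyp4a28-ps and Cyp4f41-ps also lay at background on both. The probe sets of Cyp4a29 and Cyp4a30b carry a pseudogene alias of the same gene as a second name, and both lay at background. The probe set of Cyp4b1-ps2 is likewise listed with an alias.

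Ppara and its coactivator gene Ppargc1a were called lower in globule-containing areas, and Rxra differed by less than 2-fold. Of 24 listed regulators, 18 passed the floor, 5 were called lower and 2 higher, with a median of -0.69. Of all genes above the floor, 5.26% were called lower and 6.47% higher. Ppara had 8.72 with globules and 10.21 without, 2.80-fold lower. Rxra, the partner receptor of PPARA on DNA, had 10.27 against 11.03, 1.69-fold lower, and Ppargc1a, a coactivator of PPARA, had 7.03 against 9.07, 4.11-fold lower. Nr0b2, a corepressor of nuclear receptors, was 3.72-fold lower at 7.40 against 9.30. Nr1i3, the xenobiotic receptor CAR, chosen after its value was seen, was 2.84-fold lower. Pparg, the adipocyte relative of Ppara, was the exception among the receptors, with 8.08 against 5.21, 7.33-fold higher. Nfe2l2, the regulator of antioxidant genes, had 11.31 against 9.997, 2.49-fold higher.

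Other targets of PPARA were called at shares close to those of all genes. Of 25 genes above the floor, 1 was called lower, 2 higher and 22 within 2-fold, with a median of -0.13, beside 13261 of all 15023 genes within 2-fold. Retsat, a retinol saturase, had 9.51 against 11.38, 3.64-fold lower. Pdk4, a pyruvate dehydrogenase kinase, had 9.71 against 6.40, 9.86-fold higher, and Cd36, a fatty acid importer, had 13.86 against 11.44, 5.34-fold higher. Pdk4 and Cd36 are also controlled by other factors, and Cd36 is expressed by macrophages and endothelium as well. Which cells carried it here was not measured.

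Enzymes that follow the hydroxylases in omega oxidation went both ways. Of 11 measured, 4 were called lower and 1 higher, with a median of -0.50. The shares over all genes above the floor were 5.26% lower and 6.47% higher, here and for the lists below. Adh4, an alcohol dehydrogenase that oxidises omega-hydroxy fatty acids, had 12.56 with globules and 14.51 without, 3.84-fold lower. Slc27a2, a fatty acid importer and acyl-CoA synthetase, was 3.15-fold lower at 14.80 against 16.46. Adh7 and Acsl5, chosen after their values were seen, were 3.10-fold and 2.09-fold lower. Aldh3a2, the fatty aldehyde dehydrogenase of the next step, went the other way, with 13.33 against 10.33, 7.99-fold higher. In peroxisomal beta oxidation, which shortens the dicarboxylic acids, 2 of 17 genes above the floor were called lower and 0 higher, with a median of -0.18. Abcd2, a peroxisomal importer of fatty acids, was at least 4.81-fold lower, with 4.43 at background against 7.11. Decr2 was 2.19-fold lower at 10.92 against 12.05, and Ehhadh, the bifunctional enzyme, had 13.41 against 14.33, 1.88-fold lower. Of 7 listed redox partners of P450 enzymes, 4 had a probe set of their own, and 0 of the 4 were called, with a median of -0.05. Por, the main electron donor of microsomal P450 enzymes, had no probe set of its own.

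Because Cyp4a12a marks male liver, genes that differ between the sexes were examined beside it. The Y-linked Eif2s3y had 10.03 and 9.94, Kdm5d 7.09 and 6.98 and Uty 8.39 and 7.87 on the globule-containing and globule-free arrays, and Xist, the RNA of the inactive X chromosome, lay at background on both at 4.04 and 4.32. Ddx3y had no probe set of its own. Both arrays thus gave Y-linked signal and no Xist signal above background, and the sex of the mice is not in the labels. Of 11 male-biased genes above the floor, 7 were called lower and 1 higher, with a median of -1.24. The shares over all genes above the floor were 5.26% and 6.47%. Hsd3b5, a steroid dehydrogenase, had 5.30 against 9.12, 14.2-fold lower, Elovl3, a fatty acid elongase, was at least 14.7-fold lower at 4.70 against 8.73, and Susd4 was 3.70-fold lower at 5.08 against 6.97. The 3 male-biased genes within 2-fold are named here after their values were seen. Cyp2d9 had 17.50 against 17.43, Ugt2b38 12.04 against 11.99 and Mup20 19.68 against 18.69. Gstp1, also chosen after its value was seen, was the gene called higher, 2.41-fold. Ghr, the growth hormone receptor on which male liver expression depends, was 2.26-fold lower at 11.07 against 12.25, whereas Stat5b, its signal transducer, had 7.84 against 7.58. Of 8 female-biased genes above the floor, 1 was called lower and 1 higher. Cyp2a4, which can share probes with its relatives, was 14.9-fold higher at 16.51 against 12.61, Cyp2b9 was 2.78-fold lower and Cyp2c40 1.90-fold lower.

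**Figure D4:**
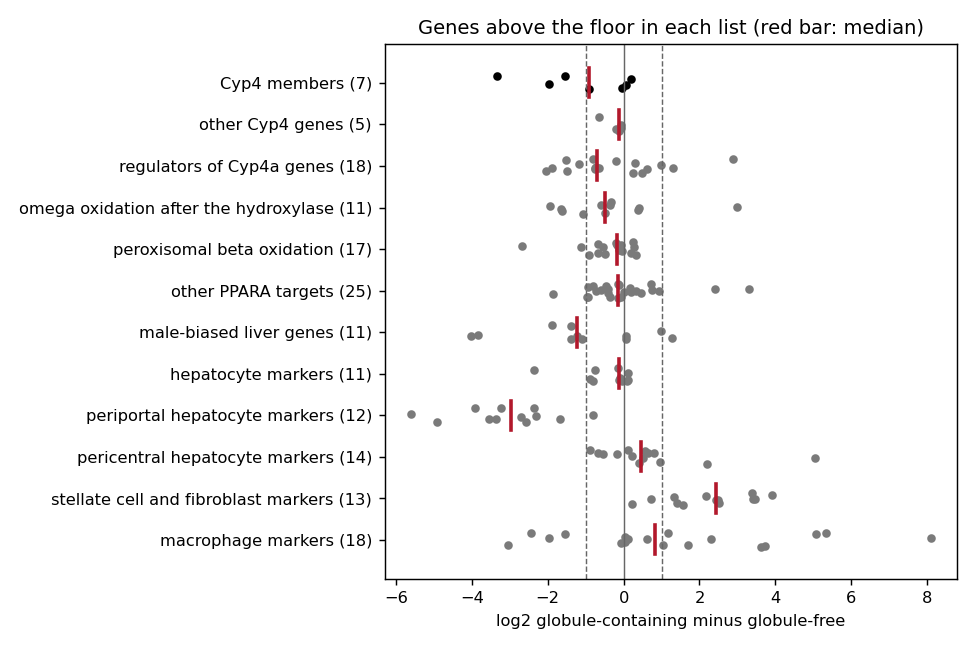
Difference (log2 globule-containing minus globule-free) of every gene above the floor in each list, with the number of genes in brackets, the list median as a red bar and dashed lines at 2-fold. The Cyp4 median is -0.91, the periportal median -2.98 and the stellate cell median 2.43, while the hepatocyte median is -0.13.

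Hepatocyte markers were bright on both arrays, and markers of lobular position and of other cells moved beside the Cyp4 values. Of 11 hepatocyte markers, 10 lay within 2-fold and Cps1 was 5.17-fold lower, with median signals of 18.39 with globules and 19.05 without. Alb and Trf lay at the top of the scale on both arrays and Ttr close to it, so a difference of these 3 could be hidden. Of 12 periportal markers, 11 were called lower, with a median of -2.98, led by Hal at 48.9-fold lower. Of 14 pericentral markers, 2 were called higher and 0 lower, with a median of 0.45. The shares over all genes above the floor were 5.26% lower and 6.47% higher. Stellate cell and fibroblast markers were called higher for 11 of 13, with median signals of 8.09 against 6.03, led by Lum at 15.2-fold, and Des lay at background on both arrays. Of 18 macrophage markers, 9 were called higher, led by Gpnmb at 277-fold, and 4 lower. The median difference was 0.82, with median signals of 7.15 and 7.11. The 4 lower markers, chosen after their values were seen, were Clec4f (8.28-fold), Vsig4 (5.44-fold), Timd4 (3.93-fold) and Marco (2.92-fold). Endothelial markers had a median of 0.15 over 14 genes, of which Rspo3 and Eng were 8.24-fold and 2.61-fold higher. The median was 0.29 over 6 cholangiocyte markers, 0.19 over 6 neutrophil markers and 0.26 over 5 lymphocyte markers. Of the 6 neutrophil markers, 2 were called higher, led by S100a8 at 60.7-fold, and 4 lay within 2-fold. Of the 5 lymphocyte markers, Il7r was called, at least 4.18-fold higher, and 4 lay within 2-fold. A further 5 neutrophil and 7 lymphocyte markers lay at background on both arrays. The part of lobular position and of other cells in the Cyp4 differences was not tested.

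**Figure D5:**
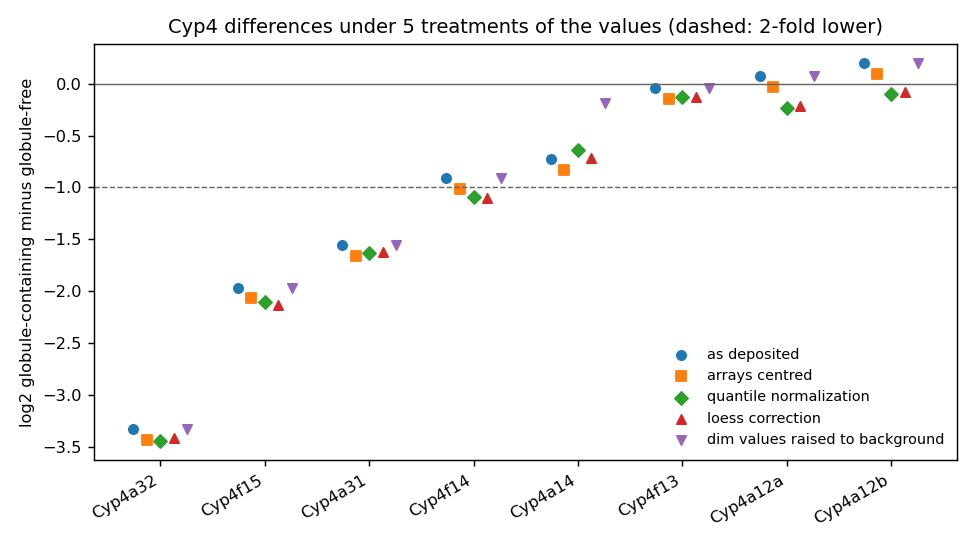
Difference (log2 globule-containing minus globule-free) of the 8 Cyp4 genes with a probe set of their own under 5 treatments of the values, with a dashed line at 2-fold lower. Cyp4a32, Cyp4f15 and Cyp4a31 stay below the line, Cyp4f14 lies from -1.10 to -0.91, and Cyp4a12a and Cyp4a12b lie on both sides of 0.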

How the data were processed

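The log2 values of 72688 probe sets were used as deposited, 1 column per array. Per the labels' protocols, a Pico Pure kit was used on the captured tissue and 50 ng of RNA per array was labelled by the Ovation WTA System V2 of NuGEN. The submitters' processing notes name the Transcriptome Analysis Console, without a version. For the background correction, the normalization and the build, the method was not given in the sources used here. Genes were named from the platform annotation: 30604 probe sets named 1 gene, 2146 several and 39938 none listed here, and 22818 matched RefSeq (GRCm38.p6) by Entrez ID. Probe sets of 1 gene were averaged. With 1 array per group there was no test, and array number, not read depth, limits the precision. Background was the 95th percentile over 1721 olfactory and vomeronasal receptor probe sets on each array. A fold with 1 array at background is a lower bound, written as at least, and uses the background level for that array.

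The members and the 19 gene lists were chosen with earlier results of these data known. Open to naming were all members, all other Cyp4 genes, in each list the 3 genes above the floor that differed most, and Ppara, Rxra, Ppargc1a, Nfe2l2, Por, Ghr, Stat5b, Xist and Ddx3y. Any gene beyond these is said to be chosen after its value was seen, except genes named only as lying at background or at or near the top of the scale, or as part of a list. Alternatives were the floor, the scaling, the choice of probe set, the background and the fold threshold. The functions were tested on simulated data. The tools were Python 3.11.15, pandas 2.3.3, numpy 2.4.6, statsmodels 0.14.6 and matplotlib 3.10.9.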

Additional observations from a re-analysis of the deposited data

How the results depend on the processing

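The median over Cyp4 genes kept its sign under every alternative run. It was -1.09 after quantile normalization, -1.10 after loess correction and -1.23 with the shared probe set of Cyp4a10 and Cyp4a31 counted. The number at least 2-fold lower was 4 of 7 after centring, quantile normalization or loess correction, since Cyp4f14 then passed the line, 4 at a 1.5-fold and 2 at a 3-fold threshold, and the number higher stayed at 0. Over these alternatives Cyp4a32 ran from -3.44 to -3.33, Cyp4f15 from -2.13 to -1.96 and Cyp4a31 from -1.66 to -1.55. Centring the arrays shifted the median of all genes by -0.10 and turned the balance of genes at least 2-fold apart from 790 lower and 972 higher to 990 lower and 789 higher. No list median changed sign under centring, quantile normalization or loess correction, but the floor turned some. The cholangiocyte median went from 0.29 to -0.10 under a stricter floor, the 75th percentile, which only 1 gene of that list passed. The lymphocyte median went from 0.26 to -0.16 without a floor, where the regulator median was -0.42. Under the stricter floor, the macrophage median moved from 0.82 to 3.63 with 9 genes left. The neutrophil value moved from 0.19 to 5.23 but rested on only 2 genes. The eicosanoid median moved from -0.10 to -0.54 with 6 genes left and the female-biased median from -0.02 to -0.86 with 5. The median of other PPARA targets moved from -0.13 to -0.36 with 21 genes left and the pericentral median from 0.45 to 0.22 with 11. No paired analysis was possible because each group is 1 array. No replicate could be left out for the same reason.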

Other observations

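Other cytochrome P450 genes above the floor were lower by 2-fold or more in more cases than higher. Of 80 with a probe set of their own, 57 passed the floor, 18 were 2-fold or more lower and 2 higher, with a median of -0.60. These 57 include Cyp4b1, Cyp4f16, Cyp4f17, Cyp4f37 and Cyp4f40, none of which was 2-fold apart. Of all genes above the floor, 5.26% were 2-fold or more lower and 6.47% higher. The Cyp2c genes had a median of -1.0, with 6 of 12 lower by 2-fold or more and 1 higher. The genes of families 1 to 3 outside Cyp2c had a median of -0.37, with 10 of 31 lower by 2-fold or more and 1 higher. Whether the Cyp4 genes differ from these families was not tested.

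Enzymes of eicosanoid metabolism, the pathway that also uses Cyp4 products, split. Of 10 above the floor, 2 were 2-fold or more lower and 2 higher, with a median of -0.10. Of all genes above the floor, 5.26% were lower and 6.47% higher by that measure. Hpgd, which inactivates prostaglandins, had 10.90 with globules and 12.83 without, 3.82-fold lower. Ephx2, the soluble epoxide hydrolase, was 2.29-fold lower at 12.82 against 14.01, and Ephx1, the microsomal epoxide hydrolase, 3.00-fold higher at 15.45 against 13.87. Ptgr1, a reductase of leukotrienes and prostaglandins, chosen after its value was seen, was at least 2.10-fold higher. Alox5, Alox12, Alox15, Ltc4s, Ptgs2 and Ptges, which make leukotrienes, prostaglandins and related lipids, lay at background on both arrays.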
